A study of Mus musculus with 3 samples.

Results

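The cells described here were mature neutrophils of the mouse meninges, the membranes around the brain, that carried a large share of *Il1b* transcripts. They were chosen on measured values: a cell counted as one of them when *S100a8* and *S100a9* made up at least 4% of its unique molecular identifiers (UMIs, 1 per captured transcript), *Camp* and *Ngp* together less than 4%, at least 2 of 7 genes of mature neutrophils were detected (*Csf3r*, *Retnlg*, *Clec4d*, *Mmp8*, *Mmp9*, *Cxcr2* and *Stfa2l1*), and *Il1b* made up at least 0.15%. Of 7057 cells with at least 500 UMIs, 174 to 4548 genes and less than 8.3% mitochondrial UMIs, 463 met these limits and are called Il1b-high below. Another 1297 cells met every limit but the last and are called Il1b-low.

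The study asked how repeated social stress alters immune cells of the meninges, by droplet single-cell RNA sequencing of 3 libraries. Male C57BL/6J mice of 10 to 12 weeks were either unstressed home cage controls (HC) or went through chronic social defeat (CSD), in which an aggressive resident male attacked them over 14 days, and the CSD mice were ones that proved susceptible to the stress. Each library held the meninges of 4 mice pooled before encapsulation, giving 2 HC libraries and 1 CSD library, and no genotype or drug differed between them. Each library ran in a channel of its own, so channel and pool cannot be told apart from the group, and with 1 CSD library the animals' own variation under stress was not measured. The libraries held 9891861 UMIs (HC replicate 1), 8814690 UMIs (HC replicate 2) and 10206236 UMIs (CSD replicate 1).

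Neutrophils leave the bone marrow with their granule proteins already made, and lose granule transcripts while they gain those of receptors and inflammatory mediators as they mature. *Il1b* encodes the precursor of interleukin-1β, a cytokine that acts on blood vessels, immune cells and the brain, and that needs a signal through NF-κB to be transcribed and, in the classical route, an inflammasome to be cut to its active form. Transcripts report the first of these steps, not the second. *Cxcl2* encodes a chemokine that attracts neutrophils through CXCR2, *Ccl6* another chemokine of myeloid cells, *Slc7a11* the cystine transporter that feeds glutathione synthesis, and *Csf3r* the receptor for the growth factor G-CSF.

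NF-κB is a known activator of *Il1b*, *Cxcl2* and *Nfkbia*, and the 250 bases before the start of these 3 genes are shown, from RefSeq on build GRCm38.p6, 5′ to 3′ on the strand of the gene. Capitals mark matches to the NF-κB consensus, searched on both strands with overlapping matches joined. *Il1b* lies at chr2:129371140-129371389 on the minus strand and held none, *Cxcl2* at chr5:90903649-90903898 on the plus strand held 2 overlapping matches, and *Nfkbia*, the NF-κB inhibitor that NF-κB itself induces, at chr12:55492648-55492897 on the minus strand held 1.
Il1b: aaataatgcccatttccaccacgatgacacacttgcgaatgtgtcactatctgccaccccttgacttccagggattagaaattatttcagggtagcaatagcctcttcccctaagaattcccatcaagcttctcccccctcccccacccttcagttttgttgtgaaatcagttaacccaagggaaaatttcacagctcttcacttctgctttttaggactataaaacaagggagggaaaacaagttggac
Cxcl2: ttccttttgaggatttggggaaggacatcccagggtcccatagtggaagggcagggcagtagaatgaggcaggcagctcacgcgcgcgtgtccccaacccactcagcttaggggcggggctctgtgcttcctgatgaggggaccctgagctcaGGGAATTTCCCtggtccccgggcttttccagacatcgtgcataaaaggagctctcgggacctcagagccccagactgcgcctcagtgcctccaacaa
Nfkbia: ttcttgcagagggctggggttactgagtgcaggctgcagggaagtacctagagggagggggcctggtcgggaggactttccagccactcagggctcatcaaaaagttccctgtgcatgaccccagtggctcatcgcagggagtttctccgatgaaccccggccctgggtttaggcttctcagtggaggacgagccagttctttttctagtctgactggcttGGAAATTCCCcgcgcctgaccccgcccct
Of all 32851 windows of this length, 1281 (3.9%) held the motif. Among the genes of the NF-κB response list described below, 20 had a window and 9 of them held a match in at least 1 of their windows. This counts genes and the 3.9% counts single windows, so the shares are not on the same scale. *Tnfaip2*, *Zfp36* and *Clec4e* of that list, which are among its 5 tested genes, held none, and neither did the markers *Ccl6*, *Slc7a11* and *Csf3r*. A match is a string of letters and not a measured site, and enhancers farther away were not searched.

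The Il1b-high cells numbered 144 and 88 in the HC libraries and 231 in the CSD library, and no cell barcode was shared between libraries among them. They were shallow cells: their median depth was 1016.5, 1005 and 1115 UMIs, against 1717, 1581 and 1938 UMIs in Il1b-low cells and 4276, 3357 and 4220 UMIs in the 1145 neutrophils rich in *Camp* and *Ngp* (4% or more of UMIs), which hold the less mature forms. Summed over cells, they gave 159945, 98783 and 269237 UMIs for the comparisons. Of a neutrophil marker list of 14 genes the rule itself read 9, and the other 5, *G0s2*, *Ly6g*, *Mxd1*, *Lcn2* and *Wfdc21*, were detected among these cells in every library.

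The values that chose the cells are given as a description. The median *Il1b* share was 0.371%, 0.353% and 0.358% of a cell's UMIs in the 3 libraries, HC replicates before CSD as in every such triple below, and 0 in Il1b-low cells. At the depth of these cells the limit lay near a few transcripts: 16 of the 463 cells passed it with 1 *Il1b* UMI, and 373 (80.6%) held 3 or more. The 72 cells just inside (0.15 to 0.2%) had a *Cxcl2* level of 3599 CPM, the count scaled to a fixed total, here of all UMIs of these cells, and the 123 cells just outside (0.1 to 0.15%) one of 2033. For *Ccl6* these levels were 5509 and 4362, and for *Slc7a11* 784 and 679. The *S100a8* and *S100a9* share was lower in Il1b-high than in Il1b-low cells, with medians of 15.2%, 14.4% and 19.0% against 28.1%, 26.1% and 29.7%.

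Although few, these cells held much of the *Il1b* message. They were 5.54%, 5.17% and 8.38% of all cells, and held 49.2%, 36.5% and 57.5% of all *Il1b* UMIs found in cells, a share that the limit on *Il1b* helps to set. *Il1b* reached 4058, 4029 and 4216 CPM in them, and 203, 245 and 221 in Il1b-low cells. In B-like cells, which should lack the transcript, it stood at 37.5, 93.5 and 47.0. In barcodes of 100 UMIs or fewer, taken as free RNA, it stood at 194, 233 and 245, about the level of the Il1b-low cells.

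The named markers went with *Il1b*, as the choice of the group intended, and their levels against Il1b-low cells are likewise given without a test. *Cxcl2* stood at 3783, 3847 and 3822 CPM in Il1b-high cells of the 3 libraries, against 1612, 1814 and 1238 in Il1b-low cells and 135, 121 and 79.9 in B-like cells. *Ccl6* stood at 5471, 5062 and 5649 against 2671, 2775 and 2687, and *Slc7a11* at 913, 1033 and 1103 against 341, 431 and 397. *Csf3r*, which the rule also read, stood at 719, 445 and 587 against 238, 197 and 190. For each of the 4 genes every Il1b-high library lay above every Il1b-low library, which by normalised CPM held for 159 of the 957 genes tested below. With every cell thinned to 500 UMIs, *Slc7a11* was detected in 38.2%, 36.4% and 36.8% of Il1b-high cells and 17.4%, 21.9% and 18.8% of Il1b-low cells, and in 0.185%, 0.921% and 0.454% of B-like cells, whose median depth before thinning was 2355.5, 2311 and 1642 UMIs. The unthinned shares of Il1b-high and B-like cells with *Slc7a11* were 55.6%, 63.6% and 54.1% and 2.58%, 6.08% and 2.95%.

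Along the *Il1b* share, levels of several genes kept changing above the 0.15% limit. From cells with no *Il1b* UMI to cells with 0.6% or more, *Cxcl2* went from 2383 to 6897 CPM (here of UMIs outside the rule's genes) in HC replicate 1, from 2822 to 6293 in the other HC library and from 1643 to 6893 under CSD. *Lcn2*, a specific granule gene, went the other way, from 7272 to 1491, from 8598 to 2606 and from 11001 to 4218. *Ly6g*, the surface antigen used to sort mouse neutrophils, went from 856 to 186, from 1139 to 127 and from 1293 to 360. *Ccl6* was highest in the middle bins. The top bin held 36, 21 and 54 cells. Median depth fell along the same axis, in HC replicate 1 from 1685 to 845.5 UMIs, and its part in these trends was not tested.

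**Figure D1:**
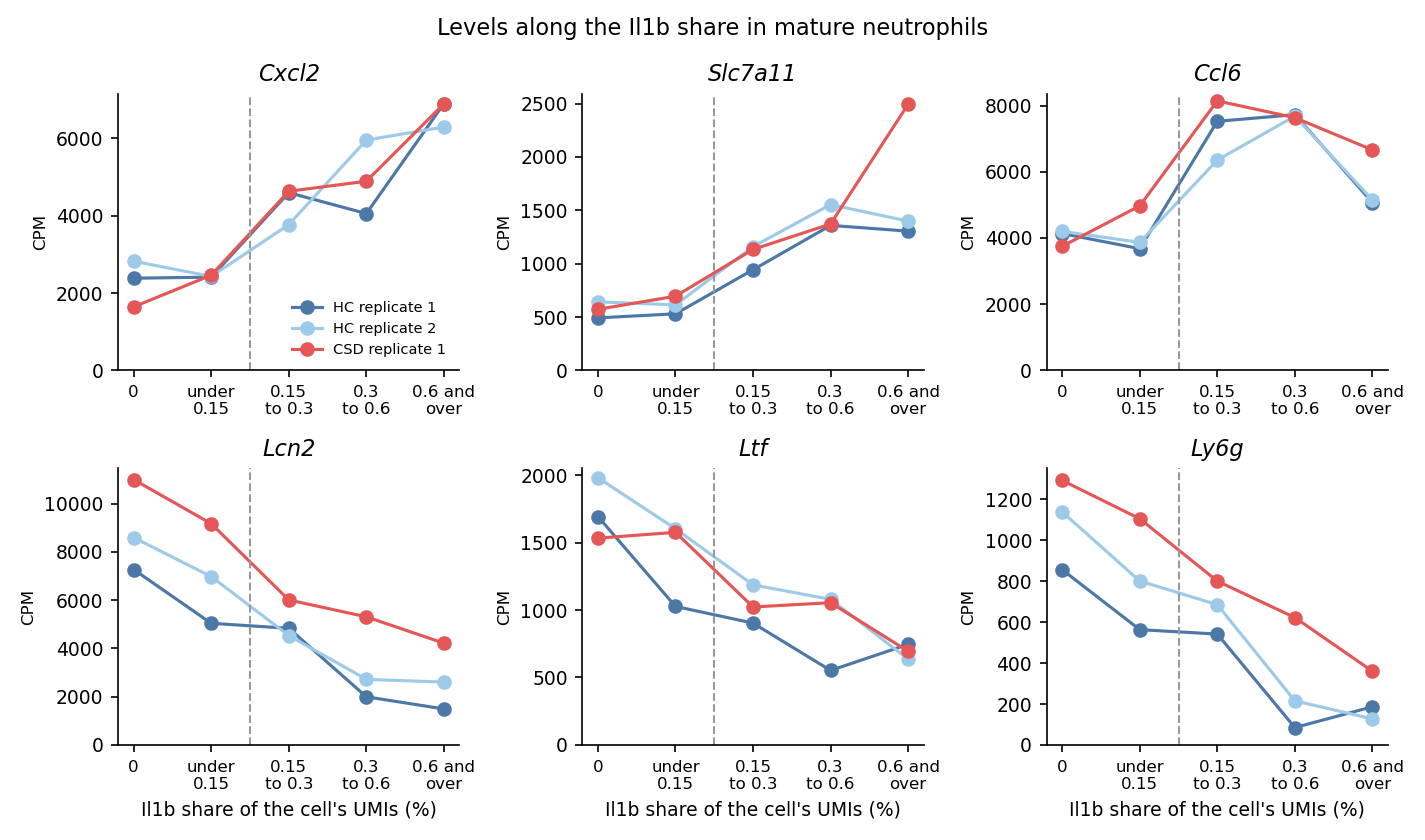
Levels of 6 genes (y axis, CPM of UMIs outside the rule's genes) in mature neutrophils binned by the *Il1b* share of a cell's UMIs (x axis, percent), 1 line per library; the dashed line marks 0.15%. *Cxcl2* is highest in the rightmost bin and *Lcn2* and *Ly6g* in the leftmost bin in all 3 libraries, while *Slc7a11* peaks at 0.3 to 0.6% in both HC libraries.

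The share of mature neutrophils that were Il1b-high differed little between CSD and HC. In the HC libraries it was 26.6% (exact 95% interval 22.9 to 30.6%) and 24.3% (19.98 to 29.1%), under CSD it was 27.0% (24.0 to 30.1%), and the 3 intervals, which cover counting error only, overlapped. CSD lay 1.49 percentage points above the HC mean of 25.5% ± 1.63 (SD, n = 2), less than the SD between the HC libraries. Without HC replicate 2 the difference was 0.337 points and without HC replicate 1 it was 2.65. With cells thinned to 500 UMIs it changed sign, to -1.90 points. Of all cells, the Il1b-high share was 3.03 points higher in CSD than the HC mean of 5.36% ± 0.262 (SD, n = 2), and of all neutrophils 0.849 points higher, within the SD of 1.76. With 3 possible arrangements of 1 library against 2, no permutation test can reach 0.05, so none was run.

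**Figure D2:**
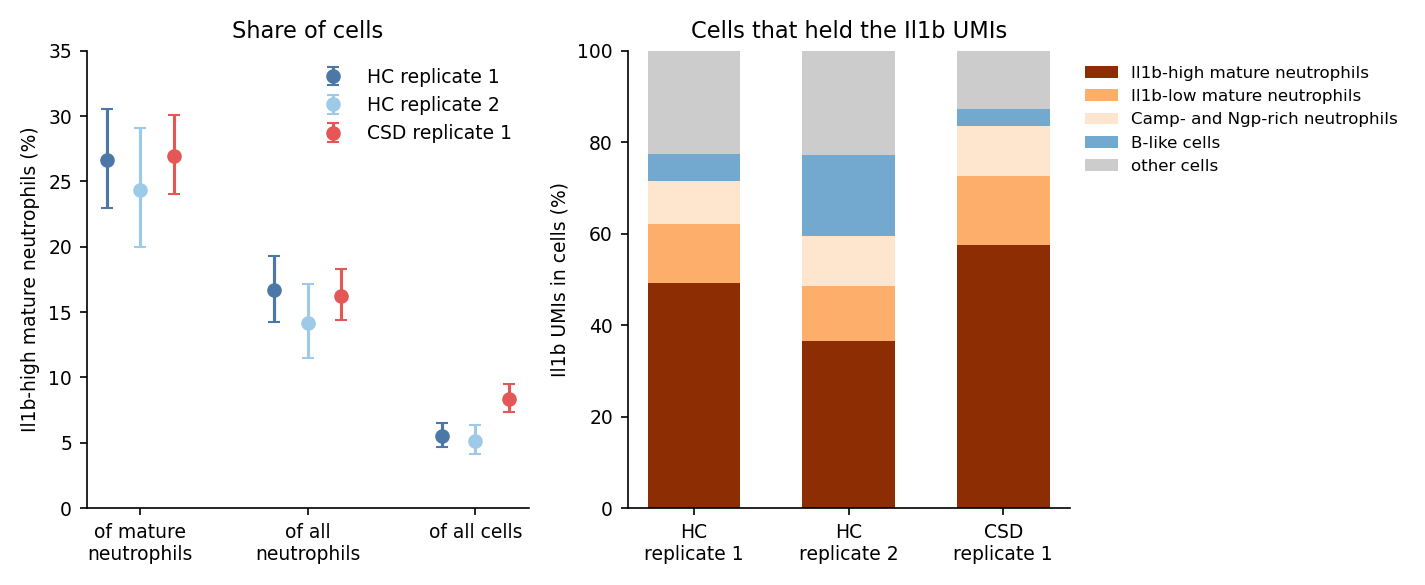
Left, Il1b-high cells as a percentage of mature neutrophils, all neutrophils and all cells (y axis, percent) with exact 95% binomial intervals, 1 point per library. Right, the type of cell that held the *Il1b* UMIs found in cells (y axis, percent); Il1b-high cells held 49.2%, 36.5% and 57.5%.

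Beyond *Il1b*, transcripts such as *Nfkbia*, *Tnfaip2*, *Dusp1* and *Junb* were higher in Il1b-high than in Il1b-low cells, and *Lcn2* and *Ly6g* were lower. UMIs were summed per library and type of cell, leaving out the 12 genes the rule reads and mitochondrial genes, and compared within libraries by the quasi-likelihood test of edgeR, with p-values adjusted after Benjamini and Hochberg. A gene was tested if more than 15% of the compared cells of the 3 libraries together held it. *Elane*, *Serpinb1a*, *Cd177*, *Adpgk*, *Lims1*, *Hist1h2ap*, *Ceacam10* and *Ltb4r1* had too few UMIs for 15% of Il1b-high cells to hold them. They reached the test through the Il1b-low cells, where they were higher. A fall was thus built into their choice, and their values below, also within lists, are given as a description. Of 957 genes tested, 357 (37.3%) passed, 187 higher (19.5%) and 170 lower (17.8%) in Il1b-high cells; 174 of the higher and 162 of the lower went the same way in all 3 libraries. The test describes a split made in these same cells, and its count depended on the model: DESeq2 called 147 of them and edgeR without the library block 77, with the sign of all 357 kept in both. With estimated free RNA subtracted, 117 genes passed and 263 of the 352 calls that could still be tested kept their sign. With cells thinned to 500 UMIs, 76 of 307 genes passed and 157 of 169 calls kept theirs. Levels below are normalised CPM, and fold changes are log2 ± SE.

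The NF-κB response list held 23 genes, of which 5 could be tested and all 5 rose, beside 19.5% of all genes tested, with a median log2 fold change of 1.18 against -0.02 over all genes tested. *Nfkbia* stood at 1951, 1904 and 2129 in Il1b-high and 759, 1141 and 832 in Il1b-low cells (log2 fold change 1.18 ± 0.09). *Tnfaip2*, a gene induced by tumour necrosis factor, stood at 1268, 855 and 710 against 440, 339 and 241 (1.49 ± 0.13). *Zfp36*, whose protein shortens the life of cytokine mRNAs, stood at 700, 1127 and 668 against 344, 379 and 286 (1.26 ± 0.13). In none of the 3 did the groups overlap. Over all 957 genes tested, 159 had every Il1b-high library above every Il1b-low library, and 133 had every one below. *Nfkbiz*, a nuclear NF-κB cofactor, and the C-type lectin receptor gene *Clec4e* were the other members that rose. *Clec4e* was lower in Il1b-high cells of HC replicate 1 (247 against 265), and by DESeq2 its adjusted p was 0.33. With free RNA subtracted, the log2 fold change of *Clec4e* was 0.010 and that of *Nfkbiz* 0.68, neither past the threshold, and without the library block neither passed. *Ptgs2*, which makes prostaglandins, was too sparse to test, at 169, 202 and 137 CPM of all UMIs in Il1b-high cells, 47.8, 78.7 and 29.0 in Il1b-low cells and 7.71, 13.6 and 10.7 in free RNA.

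The interleukin-1 system itself was represented by few transcripts other than *Il1b*. *Il1a*, the other main agonist, had 0 UMIs in all 463 cells, which allows up to 3 of their 527965 UMIs. *Il1rn*, the receptor antagonist, had 57 UMIs and was not tested, standing at 144, 101.2 and 89.1 CPM of all UMIs against 71.8, 111 and 63.1 in Il1b-low cells, so the groups overlapped. *Il1r2*, the decoy receptor that binds interleukin-1 without signalling, rose (370, 324 and 912 against 188, 235 and 573; log2 fold change 0.71 ± 0.14), and so did *Il1f9*, which encodes interleukin-36γ (296, 376 and 337 against 258, 235 and 213; 0.52 ± 0.17). *Il1f9* did not pass under 8 alternatives, among them DESeq2 (adjusted p = 0.19) and free RNA subtracted (log2 fold change 0.05), nor *Il1r2* with thinning (0.29), with free RNA subtracted (0.34) or without the library block. The CSD level of *Il1r2* was above the HC levels in both kinds of cell. *Il1r1*, the signalling receptor, had 1 UMI.

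Of 10 inflammasome and pyroptosis genes, 2 could be tested. *Txnip*, a thioredoxin-binding protein that can engage NLRP3, rose (527, 570 and 430 against 272, 232 and 212; log2 fold change 1.06 ± 0.16), and *Pycard*, the adaptor ASC, did not pass (-0.38 ± 0.20, adjusted p = 0.119 by edgeR). *Nlrp3* had 49 UMIs in Il1b-high cells, at 81.3, 121 and 89.1 CPM of all UMIs against 44.3, 28.1 and 29.7 in Il1b-low cells, with no overlap and no test. *Casp1* had 7 UMIs and *Gsdmd* 26 UMIs, and *Myd88* and *Il18rap* of the receptor list had 34 and 25 UMIs. None of these 4 could be tested.

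Among chemokines, 5 of 11 could be tested, of which *Cxcl2* and *Ccl6* are markers and were described above, and 1 of the other 3, *Ccl3*, rose. *Ccl3*, a ligand of CCR1, stood at 733, 738 and 140 in Il1b-high and 254, 289 and 105 in Il1b-low cells (log2 fold change 1.22 ± 0.16), higher in all 3 libraries while the CSD level of Il1b-high cells lay below the HC levels of Il1b-low cells. *Ccl4* (0.35 ± 0.18, adjusted p = 0.116) and *Ccl9* (0.19 ± 0.20, adjusted p = 0.50) did not pass edgeR's test. Of the receptors for chemoattractants and growth factors, 5 of 14 could be tested, of which 1 rose (*Ccr1*) and 1 fell (*Ltb4r1*, a leukotriene B4 receptor). These shares lie near the 19.5% and 17.8% of all genes tested. *Ltb4r1* had 13, 14 and 28 UMIs in Il1b-high cells and reached the test through Il1b-low cells, so its fall is a description.

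Several immediate early genes rose. Of 22 genes in the list with heat shock genes, 14 could be tested, 10 rose and 2 fell (median 0.80), beside 19.5% and 17.8% of all genes tested. Those that fell, *Hspa8* and *Hsp90ab1*, encode chaperones, and both had positive values with free RNA subtracted. *Klf6*, among the 10, was lower in Il1b-high cells of HC replicate 2 (453 against 518). *Dusp1*, a phosphatase that shuts off stress kinases, stood at 1819, 2008 and 2352 against 932, 951 and 886 (log2 fold change 1.17 ± 0.09), and *Junb*, a subunit of the AP-1 transcription factor, at 2107, 2021 and 1772 against 966, 1184 and 712 (1.09 ± 0.09). *Fos*, its partner, stood at 2979, 3018 and 2585 against 1662, 1833 and 1329 (0.85 ± 0.08). The groups did not overlap for any of the 3, as for 159 of the 957 genes tested in this direction. Such genes also respond to tissue dissociation, whose part was not tested. Of 16 glucocorticoid-responsive genes 6 could be tested, 4 rose (*Dusp1*, *Txnip*, *Il1r2* and *Tsc22d3*) and *Anxa1* fell (median 0.62), beside the same shares of all genes.

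Of 42 type I interferon response genes, 8 could be tested, 5 rose and 2 fell (median 0.67), beside 19.5% and 17.8% of all genes tested and their median of -0.02. *Ifitm1* stood at 749, 557 and 3321 against 249, 227 and 1111 (log2 fold change 1.54 ± 0.11), and *Ifitm2*, *Ifi27l2a*, *Slfn1* and *Slfn2* rose too, while *Ifitm6* (667, 570 and 1451 against 1605, 1742 and 3119; -1.25 ± 0.10) and *Ifitm3* fell. The *Ifitm* genes are close copies, and how reads shared between them were divided was not given in the sources used here. Classical members such as *Isg15* and *Ifit1* did not reach the level tested.

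In the cystine, glutathione and redox list 12 of 28 genes could be tested (median 0.14), among them the marker *Slc7a11*. Of the other 11, 4 rose and 2 fell, beside 19.5% and 17.8% of all genes tested. Those that rose were the ferritin chains *Fth1* (15062, 15636 and 14951 against 9276, 9585 and 9908; log2 fold change 0.66 ± 0.06) and *Ftl1*, the lipid peroxidase *Gpx4* and the thioredoxin *Txn1*, and *Prdx5* and *Glrx* fell. In the hypoxia and glycolysis list 10 of 23 genes could be tested and 3 fell, *Ldha*, *Gapdh* and *Pkm* (median -0.08) and none rose, beside 17.8% lower and 19.5% higher among all genes tested. *Mcl1*, which keeps neutrophils alive, was the survival gene that could be tested, and rose (568, 661 and 663 against 324, 361 and 336; 0.90 ± 0.14). In the adhesion list 3 of 5 tested genes rose, among them *Selplg* and *Cd44*, and 2 fell (*Cd177* and *Itgb2*). Of 3 tested genes of the eicosanoid list *Pla2g7* and *Alox5ap* rose and *Ltb4r1* fell. Both lists stand beside 19.5% higher and 17.8% lower of all genes tested. The falls of *Cd177* and *Ltb4r1* were built into the choice of tested genes. With free RNA subtracted the log2 fold change was -0.0027 for *Cd44*, -0.11 for *Alox5ap* and -0.10 for *Txn1*, and *Selplg* (0.59) did not pass; *Cd44* did not pass by DESeq2 (adjusted p = 0.36) either. Actin genes went both ways, with 5 of 36 tested genes higher and 6 lower (median -0.06), beside the same shares of all genes.

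Genes of the granule types went different ways. Of the specific granule list, 4 of 6 tested genes fell and none rose (median -0.73), beside 17.8% and 19.5% of all genes tested. Those that fell included *Lcn2*, an iron-scavenging protein (3086, 3575 and 5543 against 6493, 7701 and 10127; log2 fold change -1.0 ± 0.07), and *Ltf*, lactoferrin (749, 1036 and 1000 against 1457, 1772 and 1506; -0.75 ± 0.10). Those 2 genes were lower in every Il1b-high library than in any Il1b-low library, as were 133 of the 957 genes tested. With estimated free RNA subtracted, the log2 fold change of *Ltf* was 0.11. In the gelatinase granule list 2 of 4 tested genes rose, among them *Ctsd*, beside the same shares of all genes. The 1 that fell was *Cd177*, whose fall was built into the choice of tested genes. The azurophil list had *Elane*, neutrophil elastase, at 140, 25.9 and 114 against 1779, 58.8 and 702 (-3.09 ± 0.19), but 857 of 994 UMIs in Il1b-low cells of HC replicate 1 and 530 of 629 in CSD replicate 1 sat in 5 cells of each. Without Il1b-low cells of 10 or more *Elane* UMIs, a choice made after the data were seen, its log2 fold change was -0.60. *Elane* was seen in 10.4%, 2.27% and 9.09% of Il1b-high cells and in 31.2%, 7.66% and 16.1% of Il1b-low cells. It reached the test through the Il1b-low cells, so its fall is given as a description.

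Among the 10 largest rises were further genes of varied roles. *Pla2g7*, a phospholipase that inactivates platelet-activating factor, stood at 387, 246 and 409 against 84.1, 77.5 and 164 (log2 fold change 1.61 ± 0.17). *Rnf149*, a ubiquitin ligase gene, stood at 436, 389 and 435 against 152, 174 and 154 (1.43 ± 0.16), and the kinase gene *Pim1* at 617, 842 and 451 against 165, 334 and 212 (1.40 ± 0.15). The groups did not overlap in these 3, as in 159 of the 957 genes tested in this direction. *Wfdc17*, a small secreted protease-inhibitor-like protein, had the largest fitted rise (1.73 ± 0.10), at 379, 725 and 7149 against 336, 192 and 1580; by DESeq2 its adjusted p was 0.0563 and without the library block edgeR gave 0.31, and its value lay between 0.99 and 2.39 over the alternatives. In HC replicate 1 its levels were close, and the CSD level of Il1b-low cells was above both HC levels of Il1b-high cells. *H2-Q10* (1.53 ± 0.15) and *Hist1h2bc* (1.45 ± 0.12) also rose, and both have close relatives among MHC class I and histone genes. Among the 10 largest falls were *Serpinb1a*, an inhibitor of elastase (90.5, 64.8 and 104 against 274, 232 and 343; -1.70 ± 0.23), *Cd177*, a neutrophil surface glycoprotein (90.5, 130 and 171 against 344, 438 and 438; -1.58 ± 0.20), and *Adpgk*, a glucokinase (74.1, 64.8 and 77.7 against 231, 246 and 192; -1.53 ± 0.25). *Elane*, described above and the largest of them, *Lims1*, *Ifitm6*, *Tmsb10*, *Ly6c2*, *Hist1h2ap* and *Ceacam10* were the others. In Il1b-high cells *Serpinb1a* had 11, 5 and 20 UMIs, *Cd177* 11, 10 and 33 and *Adpgk* 9, 5 and 15. These 3 genes, *Elane*, *Lims1*, *Hist1h2ap* and *Ceacam10* reached the test through the Il1b-low cells, so their falls are a description.

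Several of the calls named here and below were lost under another model or setting. By DESeq2 *Wfdc17*, *Il1f9*, *Clec4e*, *Itgb2*, *Cd44*, *Txn1*, *Prdx5*, *Gpx4*, *Glrx*, *Gapdh*, *Pkm*, *Ldha*, *Ctsd*, *Ifitm3*, *Hspa8*, *Hsp90ab1*, *Tsc22d3*, *Alox5ap*, *Mxd1*, *H2-Ab1*, *C1qa*, *Ctss*, *Hbb-bs* and *Hba-a2* did not pass. In edgeR without the library block none of these passed, nor did *Ccl3* (adjusted p = 0.217), *Ifitm1* (0.26), *Ifitm6* (0.0844), *Elane*, *Hist1h2ap*, *Il1r2*, *Nfkbiz*, *Ccr1*, *Ltb4r1*, *Selplg*, *Ifitm2*, *Slfn1*, *Slfn2*, *Ifi27l2a*, *Klf6*, *Anxa1*, *Ly6g*, *Wfdc21*, *H2-Aa*, *H2-Eb1*, *Cd74* and *Apoe*. With free RNA subtracted *Ccr1* (log2 fold change 0.22), *Ltb4r1* (-1.0), *Gpx4* (0.22) and *Mcl1* (0.70) were among the genes that kept their direction and did not pass. At 1000 UMIs or more per cell the call was lost for *Ltb4r1*, *Itgb2*, *Cd44*, *Prdx5*, *Glrx*, *Gapdh*, *Pkm*, *Ldha*, *Ifitm3*, *Hspa8*, *Alox5ap* and *H2-Ab1*.

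**Figure D3:**
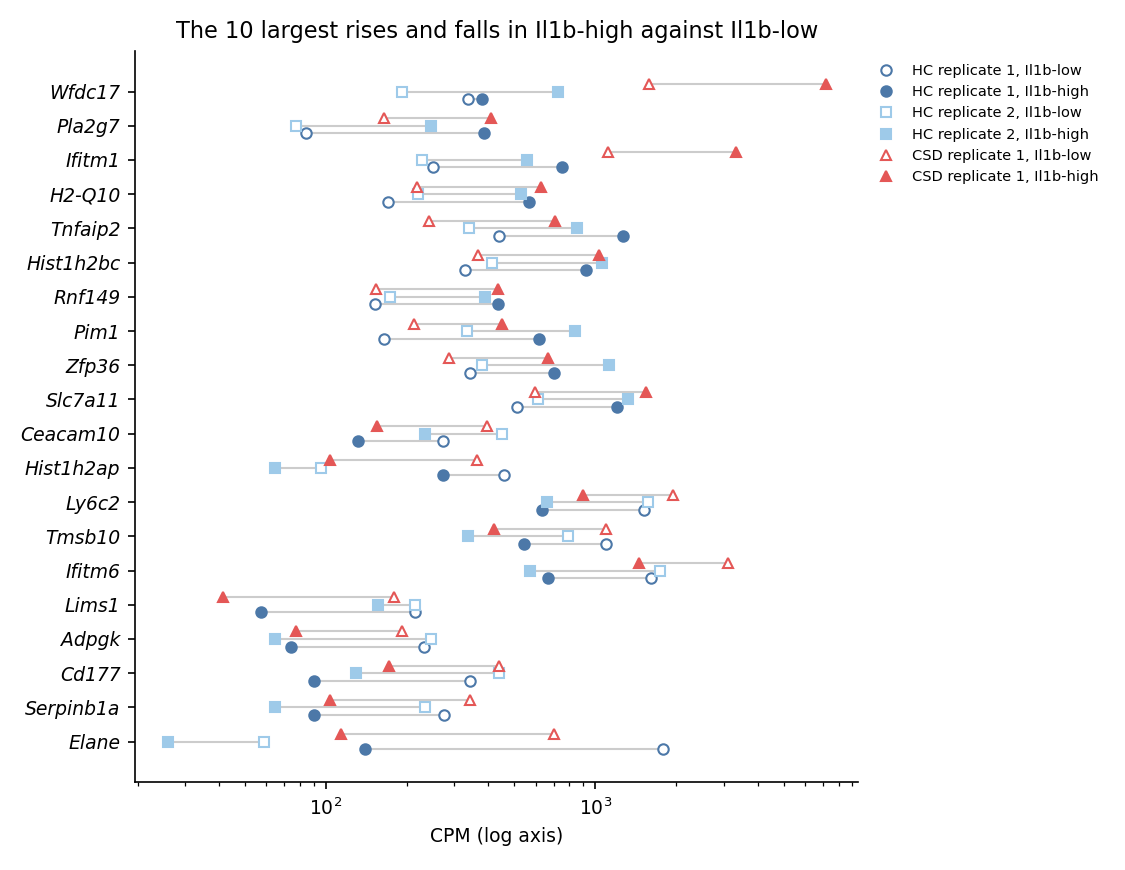
Levels (x axis, normalised CPM, log axis) of the 10 genes with the largest rise and the 10 with the largest fall in Il1b-high (filled) against Il1b-low cells (open), 1 symbol per library. *Wfdc17* and *Ifitm1* are highest in the CSD library in both kinds of cell, and the *Elane* gap is wide in HC replicate 1 and CSD replicate 1.

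Tested genes of 4 other-cell-type lists fell in Il1b-high cells, while no B, T or NK cell gene could be tested and the fibroblast gene tested did not pass. All 4 tested genes of each of the MHC class II, macrophage, monocyte and erythroid lists fell (medians -0.63, -0.51, -0.82 and -0.78), as did 52 of 81 tested ribosomal protein genes, while *Rps9* and *Rps27* rose (median -0.29; this list was added after the data were seen). Of all genes tested 17.8% fell. *Hba-a2* in HC replicate 1 (477 against 437) was higher in Il1b-high cells, as was *Ctss* in HC replicate 2 (505 against 494). The summed MHC class II level was 3064, 2318 and 1077 CPM of all UMIs in Il1b-high cells, 3750, 4566 and 1557 in Il1b-low cells and 12271, 12037 and 5635 in free RNA, and *H2-Ab1* was its most abundant gene. The macrophage sum was 4176, 2136 and 1289 against 12668, 5059 and 5431 in free RNA, led by *Apoe*, and *Lyve1* was at 0. The erythroid sum was 2138, 3624 and 5746 against 5234, 14422 and 28501 in free RNA, led by *Hbb-bs*. The B cell sum was 275, 415 and 160, led by *Cd79b*, the T and NK cell sum 194, 202 and 137, led by *Nkg7* with *Ncr1* at 0, and *Col1a1* and *Col3a1* of the fibroblast list were at 0. From 7 B cell genes, free RNA was estimated as 32.8%, 24.6% and 20.9% of the UMIs of Il1b-high cells and 46.3%, 44.2% and 35.6% of those of Il1b-low cells, and its part in these falls was not tested. With it subtracted, *H2-Ab1*, *C1qa*, *Apoe* and *Hbb-bs* had positive values, but such values can rest on counts at or near 0. *H2-Ab1* stood at 1002, 1060 and 352 CPM of all UMIs in Il1b-low cells and 2999, 2559 and 1344 in free RNA, so the subtraction left none of it in Il1b-low cells. *Cd74*, *H2-Aa*, *H2-Eb1*, *Ly6c2*, *Lyz2* and *Hba-a2* stayed negative under every alternative (*Cd74* between -1.43 and -0.70, *Lyz2* between -0.92 and -0.29).

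**Figure D4:**
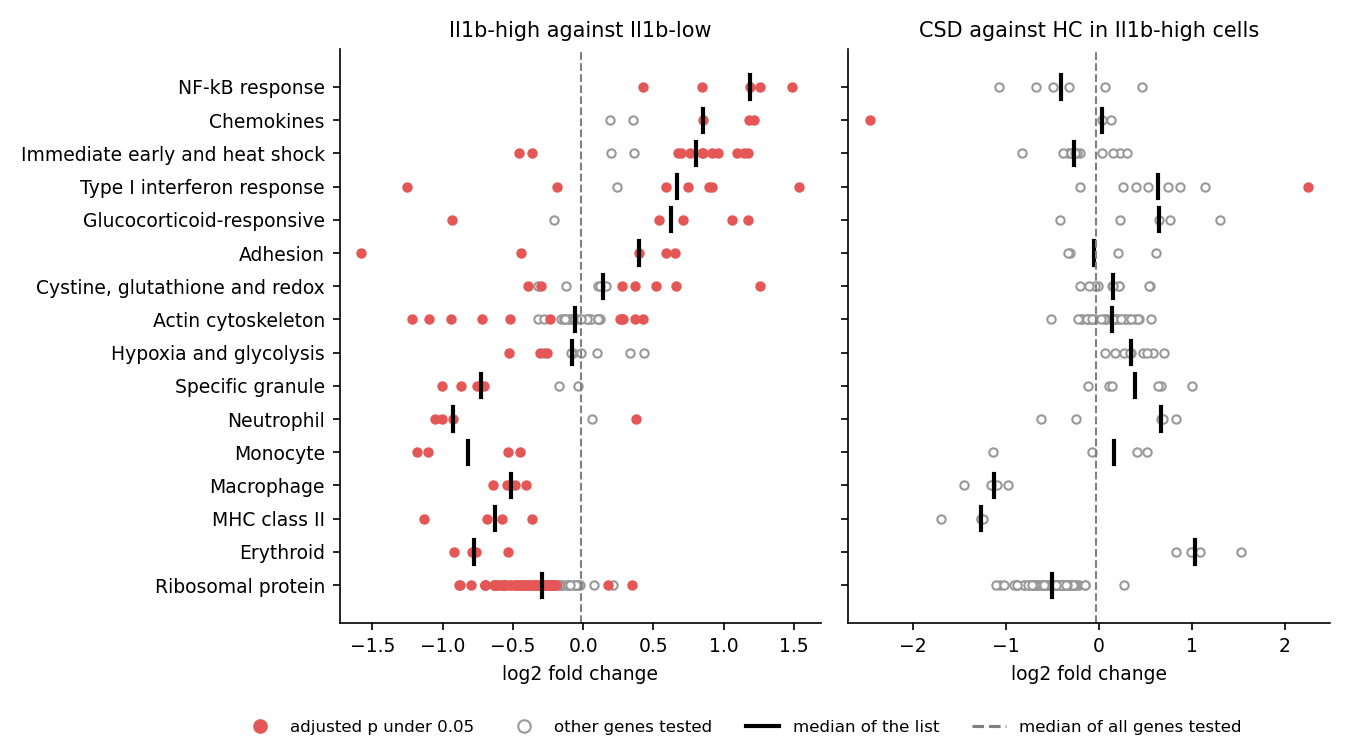
Log2 fold changes (x axis) of the tested genes of each list (rows), Il1b-high against Il1b-low at left and CSD against HC in Il1b-high cells at right; filled points passed edgeR's test, black bars are list medians and dashed lines the medians of all genes tested (-0.02 in both). The NF-κB median lies at 1.18 on the left and -0.41 on the right.

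Within Il1b-high cells, CSD went with higher *Wfdc17*, *Lrg1*, *Ifitm1* and *Gm5483* and with lower *Ccl3* and *Mgp*. The UMIs of the CSD library were compared with those of the HC libraries by the same edgeR test, so the spread came from the HC pair alone. Of 708 genes tested 6 (0.847%) passed, 4 higher (0.565%) and 2 lower (0.282%), and 94 had an unadjusted p under 0.05. In each of the 6 the CSD value lay beyond both HC values. A gene was tested if more than 15% of the Il1b-high cells of the 3 libraries together held it. The 4 higher genes were above 15% in each library, whereas *Ccl3* and *Mgp* passed through the HC cells, where they were higher, so for them a difference was built into the choice and their values are given as a description. DESeq2 called 5 of the 6. None passed with the mitochondrial limit at 5% (83 unadjusted) or with free RNA subtracted (46 unadjusted), while all 5 or 6 that could be tested there kept their sign.

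*Wfdc17* stood at 381 and 724 normalised CPM in the HC libraries and 6819 in CSD (12.8-fold, log2 fold change 3.67 ± 0.32, adjusted p = 0.0208 by edgeR). It was detected in 58.0% of CSD cells thinned to 500 UMIs, against 11.8% and 11.4% of HC cells, and in 10.5%, 5.71% and 9.30% of B-like cells of the HC libraries and of CSD. In Il1b-low cells the thinned shares were 9.32%, 4.74% and 29.6%, and the level was 225, 135 and 1052 CPM of all UMIs, so CSD was highest there too. The Il1b-high share was thus close to the B-like share in HC replicate 1 and above it in HC replicate 2. Unthinned, the shares were 16.0%, 22.7% and 73.2% of Il1b-high cells. The 5 cells with most *Wfdc17* held 16.1% of its UMIs in CSD and 54.3% and 69.6% in HC.

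*Ifitm1* stood at 754 and 556 in HC and 3167 in CSD (4.76-fold, 2.25 ± 0.23, adjusted p = 0.0208), and *Lrg1*, a secreted acute-phase glycoprotein, at 356 and 310 against 1680 (4.98-fold, 2.32 ± 0.22, adjusted p = 0.0208 by edgeR). *Gm5483*, a member of the stefin protease-inhibitor family whose close copies can share reads, stood at 447 and 556 against 1542 (1.64 ± 0.22, adjusted p = 0.0494). For these 3 genes CSD was also above both HC libraries in Il1b-low cells, at 739, 921 and 665 CPM of all UMIs against 166 and 159, 205 and 324, and 467 and 463. In free RNA *Ifitm1* stood at 75.8, 79.4 and 349 and *Lrg1* at 147, 214 and 515, so both were higher in the CSD library there too.

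*Ccl3* stood at 737 and 737 in HC and 133 in CSD (0.182 of the HC mean, -2.46 ± 0.30), from 89, 57 and 27 UMIs, and was detected in 23.6%, 30.7% and 9.96% of cells. Its log2 fold change was -2.44 without HC replicate 1. In free RNA it stood at 320, 254 and 249 CPM of all UMIs, so the library gap there was small, and in Il1b-low cells at 170, 202 and 69.8. *Mgp*, a matrix protein of fibroblasts and vessels, stood at 513 and 388 against 44.5 (-3.34 ± 0.39), in 33.3% and 28.4% of HC and 9 of 231 CSD cells. It had 1686, 1353 and 572 CPM in free RNA and 1438, 1535 and 251 in B-like cells, so CSD was lowest there too; the part of free RNA in this difference was not tested.

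**Figure D5:**
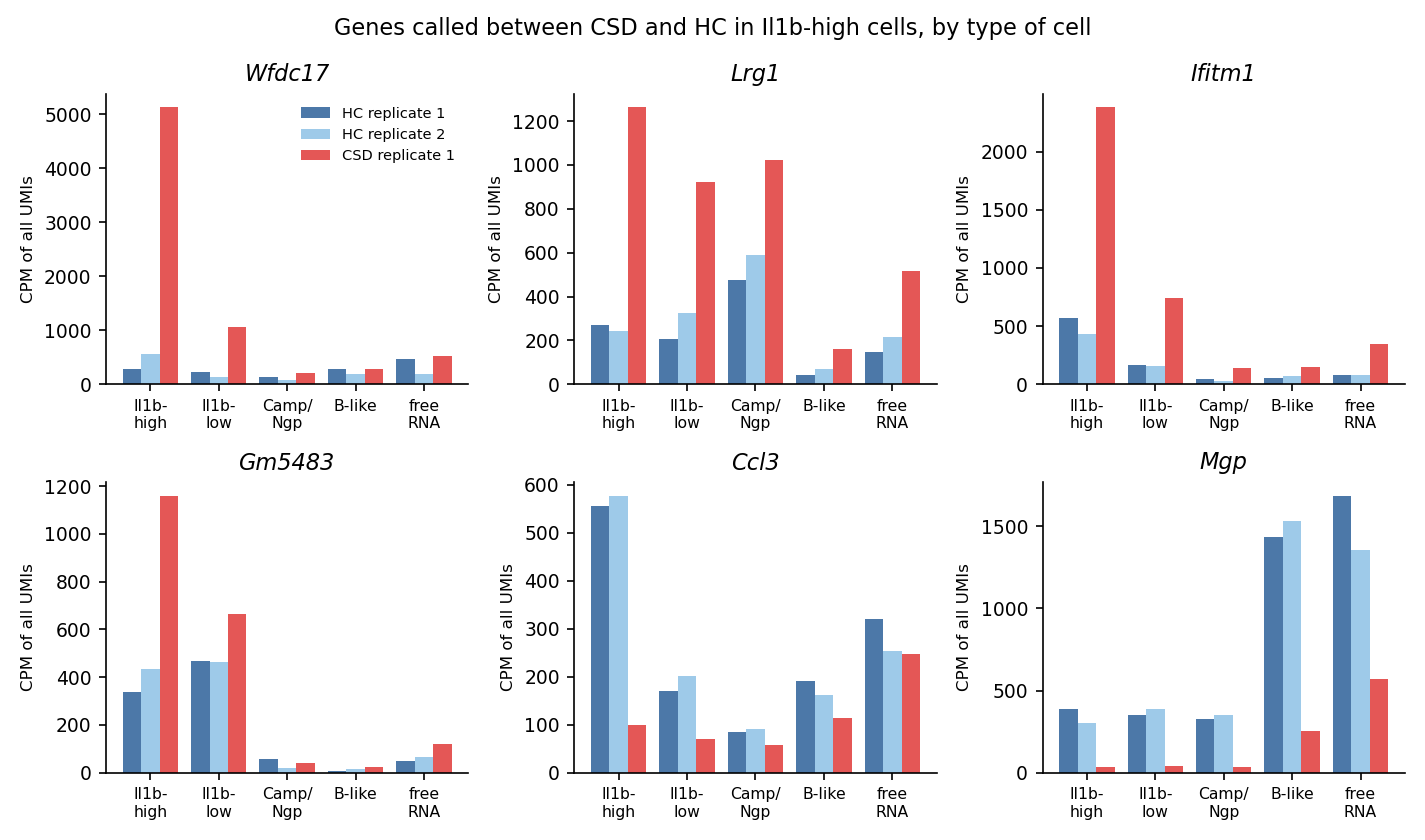
Levels (y axis, CPM of all UMIs) of the 6 genes that passed between CSD and HC in Il1b-high cells, by type of cell and in free RNA (x axis), 1 bar per library. *Wfdc17* reaches 5126 in Il1b-high cells of the CSD library and 517 in its free RNA, and *Mgp* is lowest in the CSD library in all 5 columns.

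The markers of the group did not pass between CSD and HC: the log2 fold change was 0.22 ± 0.19 for *Slc7a11*, 0.13 ± 0.18 for *Ccl6* and 0.04 ± 0.17 for *Cxcl2*. Nor did *Il1r2* (1.31 ± 0.26, adjusted p = 0.147 by edgeR), with 281 and 253 CPM of all UMIs in HC and 654 in CSD. Of the lists, the type I interferon list had 1 of 8 tested genes higher (*Ifitm1*), beside 0.565% of all 708 genes tested. Its median was 0.64 with 7 of 8 positive, against a median of -0.02 over all genes tested. All 9 tested glycolysis genes had positive values and none passed (median 0.35), and the 6 tested NF-κB genes had a median of -0.41 with none past the threshold. Of 79 tested ribosomal protein genes 78 were negative and none passed (median -0.50). The 4 tested MHC class II genes had a median of -1.26 and the 4 macrophage genes one of -1.13, with none past the threshold. Members such as *H2-Eb1* and *C1qc*, with 34 and 33 UMIs in the 231 CSD cells, were held by less than 15% of these. They passed the filter through the HC cells, so these medians are given as a description. In free RNA of the CSD library MHC class II was lower than in that of either HC library. The macrophage sum there was lower than in free RNA of HC replicate 1. The erythroid median was 1.04 with none past the threshold, and the erythroid sum in free RNA was highest in CSD.

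Whether CSD changed a gene differently in Il1b-high and Il1b-low cells was tested as an interaction in edgeR, with library as a block. Of 957 genes 6 (0.627%) passed: *Wfdc17*, *Gm5483*, *Cxcl2* and *S100a5* with a positive difference (the log2 CSD effect in Il1b-high minus that in Il1b-low cells), and the globin genes *Hbb-bs* and *Hba-a2* with a negative one. The log2 CSD effect of *S100a5* was -0.20 in Il1b-high and -1.51 in Il1b-low cells, and that of *Cxcl2* was 0.0027 and -0.47, so these differences are not larger rises in Il1b-high cells. With 1 CSD library, the spread behind this test came from the HC libraries alone. The direction turned for *Wfdc17* with free RNA subtracted (-1.14) and for *Hbb-bs* (0.46) and *Hba-a2* (0.75) with thinning. In HC replicate 1 *Wfdc17* stood at 225 CPM of all UMIs in Il1b-low cells and 474 in free RNA, so subtraction left little of it there, and the part of this in the turn was not tested. *Cxcl2* stood at 4980, 4923 and 5331 in Il1b-high cells and at 2412, 2587 and 1860 in Il1b-low cells, so the CSD library was lower than both HC libraries in Il1b-low cells and not in Il1b-high cells (difference 0.53 ± 0.14). Since *Cxcl2* marks the group and goes with *Il1b*, the split itself bears on this value. No gene passed with DESeq2 (3 with an unadjusted p under 0.05), with the *Il1b* limit at 0.3% (32), with cells thinned to 500 UMIs (9) or when genes seen in few cells were kept (250).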

How the data were processed

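Meninges of 3 pools of mice were profiled on a droplet platform with 3′ counting of UMIs. The authors deposited 1 matrix of raw UMI counts for 27998 genes and 2211840 barcodes, aggregated without depth normalisation; the submitters' processing notes name Cell Ranger 2 and the build mm10, and the annotation version was not given in the sources used here. The number after the hyphen of a barcode gave the library. Genes were kept apart by identifier, since 56 symbols were shared. Members and gene lists were chosen with earlier results of these data known.

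Counts were summed per library and type of cell, leaving out the 12 genes of the rule and 13 mitochondrial genes, and genes detected in more than 15% of the compared cells, pooled over libraries, were tested with edgeR 4.0.16 (TMM, quasi-likelihood, two-sided, Benjamini-Hochberg, threshold 0.05) in R 4.3.3. The scripts were tested on simulated data. The libraries are pools of 4 mice. For CSD against HC, p-values measure the spread between the HC libraries. With library as a block, those of Il1b-high against Il1b-low measure how the difference within a library varied between libraries. Spread estimates are shared between genes in edgeR, so a small p-value or SE can stand beside unequal differences, as for *Wfdc17*. Exact Clopper-Pearson 95% intervals cover counting error only. Named genes were the markers and the genes of the rule; the 10 largest rises and falls among genes past the threshold with 1 direction in 3 libraries; up to 5 of each between CSD and HC with CSD beyond both HC libraries; the 3 smallest p of the interaction, with the other calls named because they were few; list members past the threshold; and interleukin-1, inflammasome and chemokine genes with at least 20 UMIs. Genes below 20 UMIs, *Ptgs2*, *Isg15*, *Ifit1* and the levels along *Il1b* were named outside this rule, after their values were seen, and a few list members past the threshold are not reported here.

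Alternatives were an *Il1b* limit of 0.3%, 1000 UMIs per cell, the top 5% of Scrublet scores (scanpy 1.11.5) left out, a mitochondrial limit of 5%, cells thinned to 500 UMIs, DESeq2 1.42.0, no filter on the share of cells, free RNA subtracted, Il1b-low cells without an *Il1b* UMI, no library block and each library left out. Doublets were otherwise kept; the Scrublet limit removed 2 Il1b-high cells, both of HC replicate 1.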

Additional observations from a re-analysis of the deposited data

Results flagged for a closer look

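For 6 genes the CSD effect differed between Il1b-high and Il1b-low cells by edgeR's interaction test, which is what set them apart. With 1 CSD library its spread came from the HC libraries alone, and no gene passed by DESeq2, at an *Il1b* limit of 0.3%, with thinning or when genes seen in few cells were kept. Values are the log2 CSD effect in Il1b-high minus that in Il1b-low cells. *Wfdc17* had 1.26 ± 0.22, with 379, 725 and 7149 normalised CPM in Il1b-high cells (HC replicates 1 and 2, then CSD) and 336, 192 and 1580 in Il1b-low cells. *Gm5483* had 1.17 ± 0.25, with 444, 557 and 1616 against 698, 660 and 999. *Cxcl2* had 0.53 ± 0.14. *S100a5*, a calcium-binding protein gene, had 1.5 ± 0.41, with 156, 285 and 207 against 610, 438 and 189, and in B-like cells it stood at 657, 1211 and 1101 CPM of all UMIs. *Hbb-bs* had -0.88 ± 0.16, with 1350, 2345 and 3813 against 1363, 2787 and 7727. *Hba-a2*, whose near-identical copy *Hba-a1* can share its reads, had -1.10 ± 0.23, with 477, 764 and 1129 against 437, 1034 and 2726. The direction turned for *Wfdc17* with free RNA subtracted (-1.14), which left little *Wfdc17* in Il1b-low cells of HC replicate 1. It also turned for *Hbb-bs* (0.46) and *Hba-a2* (0.75) with cells thinned to 500 UMIs. In free RNA *Hbb-bs* stood at 2473, 6278 and 12540 CPM of all UMIs, and its part in the globin differences was not tested.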

How the results depend on the processing

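The count of genes that differed between Il1b-high and Il1b-low cells was 76 of 307 tested with cells thinned to 500 UMIs, 117 with free RNA subtracted, 147 with DESeq2 and 77 without the replicate block; the library is the block, since both kinds of cell came from the same pool. It lay between 219 and 312 with 1 library left out, lowest without CSD replicate 1. With free RNA subtracted 45.3% of the calls were higher and without the block 66.2%, against 52.4%. For CSD against HC no paired analysis was possible, since the pools held different mice and no label tied a replicate number to a shared batch or day. There, the count of calls was 28 with the *Il1b* limit at 0.3%, 26 at 1000 UMIs, 18 of 337 with thinning, 50 of 2335 without the filter, and 0 with the mitochondrial limit at 5% or free RNA subtracted. The interaction gave 10 calls with free RNA subtracted, and 0 with the *Il1b* limit at 0.3%, with thinning, without the filter (250 unadjusted) or by DESeq2. The CSD difference in the Il1b-high share of mature neutrophils was -1.90 points with thinning and 0.337 to 2.65 with 1 HC library left out.

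With free RNA subtracted, the log2 fold change of Il1b-high against Il1b-low cells changed sign for *Cd44* (-0.0027), *Txn1* (-0.10), *Ltf* (0.11), *Hspa8* (4.15), *Hsp90ab1* (0.029), *Alox5ap* (-0.11), *Lcp1* (-0.077), *Myl12b* (-0.033), *H2-Ab1* (7.09), *C1qa* (2.93), *C1qb* (2.01), *C1qc* (5.67), *Apoe* (2.49), *Plac8* (0.28), *Ctss* (6.64), *Hbb-bs* (2.45), *Hba-a1* (0.10), *Stmn1* (1.09) and *Mxd1* (-0.035), none with an adjusted p under 0.05. With thinning it did so for *Hspa8* (0.020), *Lcp1* (-0.095), *Hbb-bt* (0.13) and *Mxd1* (-0.15). The interaction changed sign for *Wfdc17* with free RNA subtracted (-1.14), and with thinning for *Hbb-bs* (0.46) and *Hba-a2* (0.75). The cause was not tested. Subtraction set counts to 0 where the estimate exceeded them, so values with free RNA subtracted can rest on counts at or near 0. This held for *H2-Ab1* and *Wfdc17* in Il1b-low cells of HC replicate 1. Over named genes and alternatives, 1050 values of Il1b-high against Il1b-low kept their direction and their side of the threshold and 304 kept only the direction.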
